A study of Mus musculus with 3 samples.

Results

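The canonical WNT pathway was followed here through 10 genes: the co-receptors *Lrp5* and *Lrp6*, the destruction complex genes *Axin1*, *Axin2*, *Apc*, *Gsk3a* and *Gsk3b*, the gene of beta-catenin, *Ctnnb1*, and the DNA-binding partners *Lef1* and *Tcf7l1*. They were taken by gene symbol, and all 10 were found among the 24062 symbols of the count tables. RNA had been sequenced from the rostrum (the front of the head) of mouse embryos at E9 with 18 to 22 somites. The *tuft* embryos were *tuft*/*tuft*, homozygous for a nonsense mutation in *Tet1*, and had neural tube defects, and the wild-type embryos were of the 3H1 Balb strain, which is the background of both genotypes. For each genotype, RNA of 3 embryos was pooled and 1 column of counts was analyzed. The labels list 2 *tuft* samples and 1 wild-type sample, and which of the *tuft* samples the *tuft* column holds is not stated.

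In the canonical pathway, a WNT ligand joins a Frizzled receptor and LRP5 or LRP6 into one complex at the cell membrane. Without a ligand, AXIN and APC hold beta-catenin for the kinases CK1 and GSK3, whose phosphorylation marks it for degradation. With a ligand, this destruction complex is drawn to the phosphorylated tail of the co-receptor, beta-catenin accumulates, enters the nucleus and joins proteins of the TCF/LEF family on their target genes. Mouse embryos depend on this pathway for the patterning of the head, for the neural crest and for growth of the facial primordia.

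The data were raw counts of reads per gene, 14251942 on genes in the wild-type library and 6433067 in the *tuft* library. Levels are given as counts per 1000000 counts on genes (CPM). Fold changes are *tuft* over wild type after normalization by the trimmed mean of M-values (TMM), which multiplied the effective size of the *tuft* library by a further 0.761. The range in brackets after a fold change is its 95% Clopper-Pearson interval, which covers counting error only. With 1 library per genotype no value has a replicate error, no p-value is given, and a difference compares these libraries and not the genotypes. *Tet1* itself had 435 counts in wild type and 32 in *tuft*, a fold change of 0.214 (0.145 to 0.307). A change of 4-fold or more in this direction was found for 32.0% of the 13979 genes tested below.

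A gene was called lower or higher when its fold change reached 2 in that direction, among the 13979 genes whose counts in the libraries sum to 10 or more. All 10 members passed this minimum. Of the 10, 3 were called lower in *tuft* (*Apc*, *Lrp6* and *Gsk3a*), none was called higher and 7 were not called. Of all tested genes, 42.9% were called lower and 21.3% higher. The number of genes with a count was 16914 in wild type and 11795 in *tuft*, from a *tuft* library with fewer counts, and the part of this difference in the calls was not tested. The members all had a mean level of at least 10 CPM, and of the 9453 genes with such a level 26.3% were called lower and 26.2% higher. The count of members called lower is close to these shares. The median log2 fold change of the members was -0.53, beside -0.55 for all tested genes and 0.02 for those at 10 CPM or more. A change of 4-fold or more was found for 2 members, *Apc* and *Lrp6*, both lower, and for 32.0% (lower) and 9.20% (higher) of all tested genes.

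**Figure D1:**
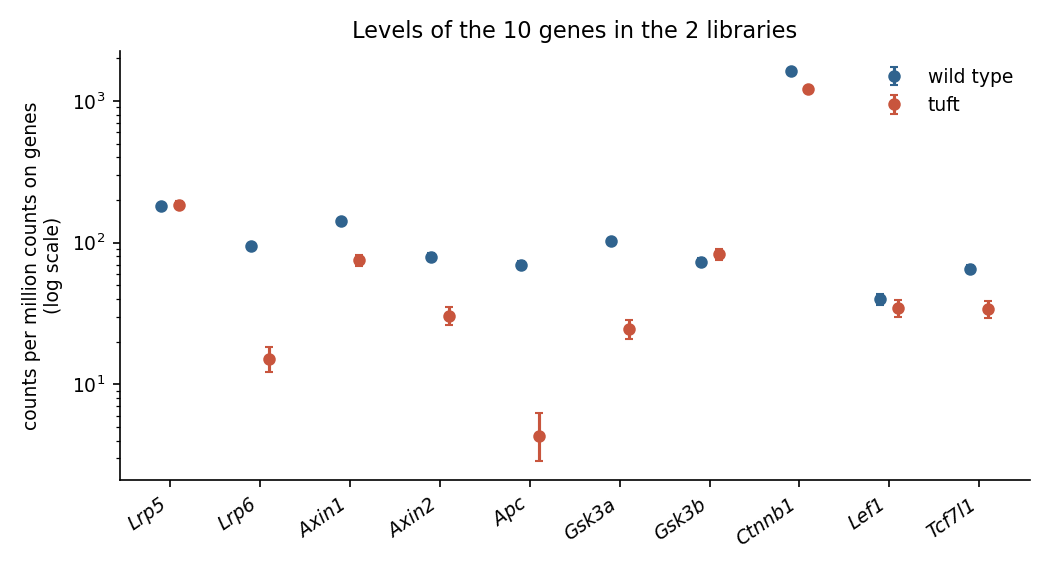
Level of each of the 10 genes in the wild-type (blue) and *tuft* (red) library, in CPM on a log scale, with 95% Poisson intervals for counting error. *Apc*, *Lrp6* and *Gsk3a* show the widest gaps, from 69.5 to 4.35, from 94.8 to 15.1 and from 103 to 24.4 CPM, and the points of *Lrp5* almost coincide.

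Promoter windows of GRCm38.p6 were taken from RefSeq for 6 of the 10 genes (10 windows). Each runs from 250 bases before to 50 bases after an annotated start of transcription. No window was at hand for *Lrp5*, *Lrp6*, *Axin1* and *Apc*, so *Gsk3a* is the only member called lower that has one. The windows shown are those of the kinase pair *Gsk3a* and *Gsk3b*, whose levels moved apart, and of *Axin2* and *Lef1*, the members that are also targets of the pathway. They are printed 5′ to 3′ on the strand of the gene, with the letters CTTTGA or their reverse complement TCAAAG, the core of the TCF/LEF motif, in capitals. *Gsk3a* lies at chr7:25237802-25238101 (minus strand), *Gsk3b* at chr16:38088751-38089050, *Axin2* at chr11:108920099-108920398 and the fourth window of *Lef1* at chr3:131156044-131156343 (plus strand for the last 3 genes).
Gsk3a: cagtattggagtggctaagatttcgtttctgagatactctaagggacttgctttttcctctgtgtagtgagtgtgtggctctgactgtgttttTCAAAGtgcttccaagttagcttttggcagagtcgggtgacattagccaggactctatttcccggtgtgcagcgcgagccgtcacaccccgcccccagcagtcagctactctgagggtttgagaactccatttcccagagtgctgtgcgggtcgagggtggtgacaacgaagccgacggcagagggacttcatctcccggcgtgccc
Gsk3b: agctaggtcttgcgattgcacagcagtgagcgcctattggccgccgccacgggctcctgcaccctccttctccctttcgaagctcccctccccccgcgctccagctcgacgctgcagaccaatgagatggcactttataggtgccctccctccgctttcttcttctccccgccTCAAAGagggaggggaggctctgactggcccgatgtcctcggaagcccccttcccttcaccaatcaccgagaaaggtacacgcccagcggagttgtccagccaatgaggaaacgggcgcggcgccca
Axin2: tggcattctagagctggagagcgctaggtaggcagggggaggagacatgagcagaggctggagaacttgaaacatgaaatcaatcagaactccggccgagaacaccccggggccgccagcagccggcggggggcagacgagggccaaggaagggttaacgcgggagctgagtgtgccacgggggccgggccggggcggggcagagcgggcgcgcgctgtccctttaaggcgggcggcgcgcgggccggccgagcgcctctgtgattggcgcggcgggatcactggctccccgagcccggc
Lef1: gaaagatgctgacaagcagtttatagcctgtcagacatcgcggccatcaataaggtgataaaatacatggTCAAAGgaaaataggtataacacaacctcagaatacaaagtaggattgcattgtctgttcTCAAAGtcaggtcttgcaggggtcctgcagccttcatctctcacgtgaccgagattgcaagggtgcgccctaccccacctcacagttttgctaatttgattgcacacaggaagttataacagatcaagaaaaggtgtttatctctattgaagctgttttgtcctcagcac

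The motif letters were found in the window of *Gsk3a*, beginning at position -157 from the start site, in that of *Gsk3b* at -77 and in the fourth window of *Lef1* at -180 and -120. The other 7 windows held none, the one of *Axin2* and the first 3 of *Lef1* included. Of the *Lef1* windows only the fourth, which holds the letters, is printed. It lies inside the gene, which begins at position 131110297. Of all 32851 promoter windows, 16.0% held the letters on either strand, so a match in a single window is common. A match describes the letters and no binding.

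CpG dinucleotides, whose methylated form TET enzymes oxidize, numbered 14 in the window of *Gsk3a* and 21 in that of *Gsk3b*. The windows of *Axin2*, *Tcf7l1* and *Ctnnb1* held 31, 34 and 46 to 51. In *Lef1* the count went from 18 and 21 in the first 2 windows to 8 and 5 in the others. The median of all windows was 7, with quartiles of 3 and 20. The *Gsk3a* window thus had fewer CpGs than the first window of each of the other 5 members with a window, and more than 63.7% of all windows. *Apc* and *Lrp6*, also called lower, could not be compared. DNA methylation was not measured in these libraries.

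The co-receptors differed from each other. *Lrp5* (chromosome 19 of GRCm38, 3584825 to 3686585) had 2572 counts in wild type and 1187 in *tuft*, which is 180 and 185 CPM. Its fold change was 1.34 (1.25 to 1.44), not called, and 68.3% of tested genes had a lower one. *Lrp6* (chromosome 6, 134446476 to 134566913) had 1351 counts in wild type and 97 in *tuft*, or 94.8 and 15.1 CPM. Its fold change was 0.209 (0.168 to 0.257), so the wild-type level was 4.78 times that of *tuft* (3.89 to 5.94). *Lrp6* was called lower, and 30.1% of tested genes, those with few counts included, had a lower fold change still. Its log2 fold change of -2.26 lay below the lower quartile of genes at 10 CPM or more, which was -1.08. Both receptors carry WNT signals across the membrane, and loss of *Lrp6* alone is known to disturb neural tube closure in mice.

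Because both members of a pair are counted in the same library, their shares do not depend on the scaling between libraries. *Lrp6* made up 34.4% (33.0 to 35.9) of the counts of the co-receptor pair in wild type and 7.55% (6.17 to 9.14) in *tuft*. The intervals for counting error lie far apart. A share of counts is not a share of molecules, since the annotated *Lrp6* transcript is longer, 9368 bases against 5172 for *Lrp5*.

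Of the scaffold genes of the destruction complex, *Apc* was called lower and *Axin1* and *Axin2* were not called. *Apc* (chromosome 18, 34220297 to 34322190), whose large protein binds beta-catenin and AXIN, had 990 counts in wild type and 28 in *tuft*, or 69.5 and 4.35 CPM. Its fold change of 0.0824 (0.0544 to 0.120) was the lowest of the 10, a wild-type level 12.1 times that of *tuft* (8.35 to 18.4). Even so, 19.1% of all tested genes had a lower fold change, a share that includes genes with few counts. Among genes at 10 CPM or more the lower quartile of the log2 fold change was -1.08, and *Apc* stood at -3.60. RefSeq names a pseudogene, *Apc-ps1*, with which reads of *Apc* could be shared.

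*Axin1* (chromosome 17, 26131217 to 26195811), the constitutive scaffold, had 2019 counts in wild type and 482 in *tuft*, or 142 and 74.9 CPM. The fold change was 0.695 (0.628 to 0.768), not called. *Axin2* (chromosome 11, 108917828 to 108950783), a scaffold that the pathway itself induces as negative feedback, had 1131 and 195 counts, or 79.4 and 30.3 CPM. With a fold change of 0.502 (0.429 to 0.585) it lay at the threshold of 2, just short of a call. Scaling by the upper quartile, by library totals or by totals without the top genes put *Axin2* past the threshold, with a lowest fold change of 0.382. *Axin1* took 64.1% (62.4 to 65.8) of the counts of the *Axin* pair in wild type and 71.2% (67.6 to 74.6) in *tuft*. This was a smaller shift than in the pair of co-receptors.

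The kinase genes moved apart. *Gsk3a* (chromosome 7, 25228258 to 25237851) had 1469 counts in wild type and 157 in *tuft*, or 103 and 24.4 CPM, and was called lower with a fold change of 0.311 (0.262 to 0.367). *Gsk3b* (chromosome 16, 38089001 to 38246084) had 1040 and 531 counts, or 73.0 and 82.5 CPM. Its fold change of 1.49 (1.34 to 1.65) was the highest of the 10 and was not called. The kinases encoded by these genes act largely interchangeably in the destruction complex. *Gsk3a* made up 58.5% (56.6 to 60.5) of the counts of the pair in wild type and 22.8% (19.7 to 26.1) in *tuft*, so that the order of the counts of the pair turned over. The transcripts differ in length, 2260 bases for *Gsk3a* and 8303 for *Gsk3b*. Per kilobase of transcript *Gsk3a* stayed first in *tuft*, at 10.8 against 9.94 CPM with overlapping intervals. Per kilobase of coding sequence the order turned over, from 70.0 and 56.0 to 16.6 and 63.4. *Gsk3a* overlaps the noncoding gene 9130221H12Rik, which had 68 counts in wild type and 80 in *tuft*. Other members overlap annotated genes as well. Among them are *Apc* with Gm10548 (5 counts in wild type and 0 in *tuft*), *Gsk3b* with BC031361 (25 and 1) and *Lrp6* with Gm52921, which was not among the counted symbols. Whether the counting used strand is not stated, and without it reads of overlapping genes cannot be told apart.

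**Figure D2:**
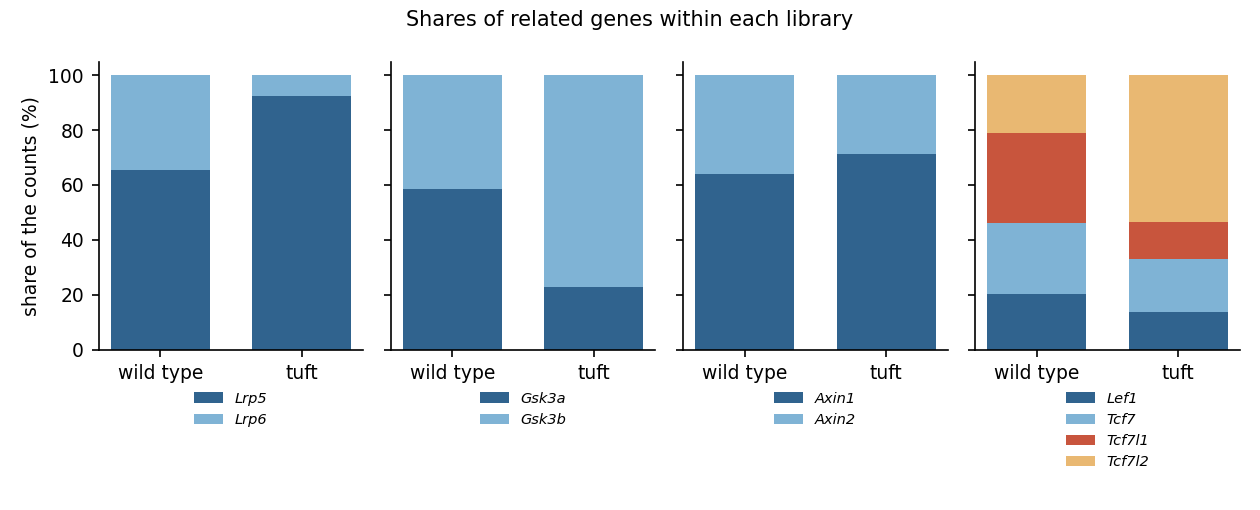
Share of the counts (%) taken by each gene of a related set within the wild-type and the *tuft* library, stacked to the whole of the set. The share of *Lrp6* goes from 34.4% to 7.55%, that of *Gsk3a* from 58.5% to 22.8% and that of *Tcf7l2* from 21.0% to 53.4%, whereas *Axin1* goes from 64.1% to 71.2%.

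*Ctnnb1* (chromosome 9, 120933400 to 120960507) was by far the most counted member. Beta-catenin acts both as the transcriptional effector of the pathway and as a link between cadherins and the actin cytoskeleton. The gene had 23142 counts in wild type and 7790 in *tuft*, or 1624 and 1211 CPM, and it supplied 65.7% and 71.4% of all counts of the 10 genes. Its fold change was 0.980 (0.955 to 1.01) with TMM, and the interval includes 1. On library totals alone the fold change was 0.746, and across the 6 scalings it ranged up to 1.01. Counts of RNA hold no information on the stability of the protein, which is the step that the destruction complex controls.

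The DNA-binding partners were not called. *Lef1* (chromosome 3, 131110297 to 131224357), an activator that is also a target of the pathway, had 566 counts in wild type and 221 in *tuft*, or 39.7 and 34.4 CPM. Its fold change was 1.14 (0.969 to 1.33), and it fell to 0.865 on library totals alone. *Tcf7l1* (chromosome 6, 72626371 to 72789045), mainly a repressor of target genes and needed for the formation of the forebrain, had 923 and 218 counts, or 64.8 and 33.9 CPM. The fold change was 0.688 (0.591 to 0.798). *Tcf7l1* and *Lef1* belong to a family of 4 genes, and the 2 remaining ones, *Tcf7* and *Tcf7l2*, gave the comparison within a library. *Tcf7l1* held the largest share of the counts of this family in wild type, 33.0% (31.3 to 34.8), and 13.6% (12.0 to 15.4) in *tuft*. *Lef1* held 20.2% (18.8 to 21.8) and 13.8% (12.1 to 15.6), and *Tcf7* 25.8% (24.1 to 27.4) and 19.2% (17.3 to 21.2). These lower shares of *Lef1* and *Tcf7* stand beside TMM fold changes of 1.14 and 1.24, since a share also depends on the other genes of the family. *Tcf7l2* held 21.0% (19.5 to 22.6) in wild type and 53.4% (51.0 to 55.9) in *tuft*, from 587 and 856 counts.

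**Figure D3:**
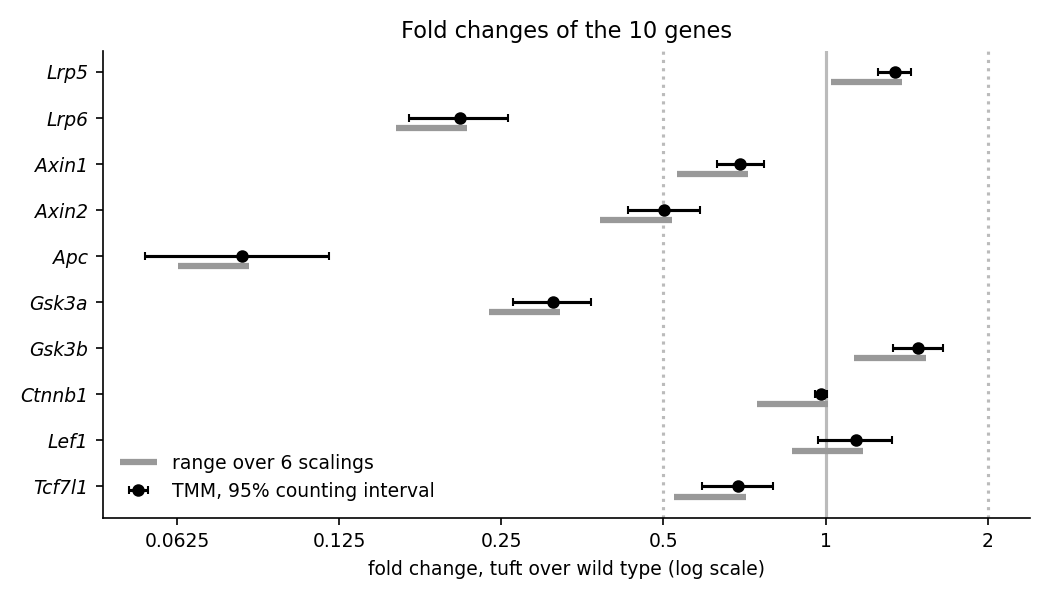
Fold change of each gene, *tuft* over wild type, on a log axis, with the TMM value and its 95% interval for counting error in black and the range over 6 scalings in gray. Dotted lines mark 2-fold in either direction. *Apc* at 0.0824, *Lrp6* at 0.209 and *Gsk3a* at 0.311 lie past the lower line under each scaling, and *Axin2* lies on it.

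Counting error was small beside these differences for most members. The interval lay below 1 for 6 of the 10 genes and above 1 for 2 (*Lrp5* and *Gsk3b*), and it included 1 for *Ctnnb1* and *Lef1*. Scaling mattered more than counting for several genes. Library totals alone shifted the median log2 fold change of all tested genes by -0.39, and totals without the 10 top genes of each library by -0.34. Under the 6 scalings, the fold change of *Lrp5* ranged from 1.02 to 1.39 and that of *Gsk3b* from 1.13 to 1.54. Those of *Axin1* and *Tcf7l1* stayed below 1, at 0.529 to 0.718 and 0.523 to 0.710.

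**Figure D4:**
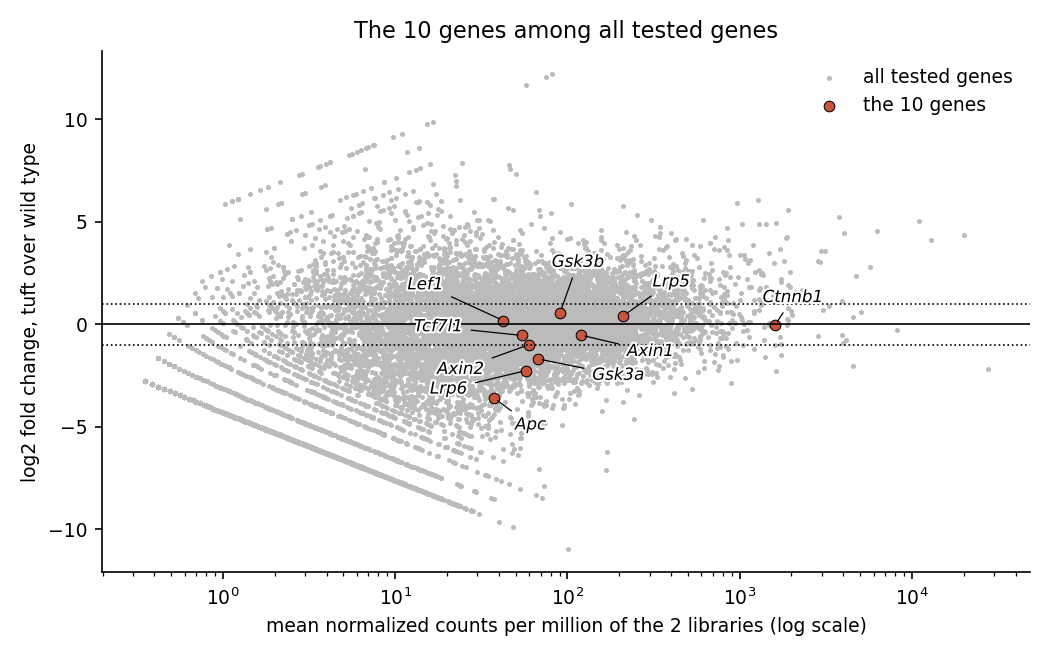
Log2 fold change, *tuft* over wild type, against the mean normalized level of the 2 libraries (CPM, log scale) for the 13979 tested genes in gray and the 10 genes in red; dotted lines mark 2-fold. The 10 genes span log2 fold changes from -3.60 to 0.57 and lie within the cloud of all tested genes.

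Levels of different genes were compared per kilobase of the longest annotated transcript. In wild type, *Ctnnb1* stood at 448 CPM per kilobase, followed by *Gsk3a* at 45.6, *Axin1* at 37.5 and *Lrp5* at 34.9. The middle of the order was held by *Tcf7l1* at 21.3 and *Axin2* at 18.6 CPM per kilobase. *Lef1* (11.4), *Lrp6* (10.1), *Gsk3b* (8.79) and *Apc* (5.63) were the lowest on this scale. Counting intervals of neighbors in this order overlapped for *Axin1* and *Lrp5* and for *Lef1* and *Lrp6*. In *tuft*, *Ctnnb1* was again first at 334 CPM per kilobase, before *Lrp5* at 35.7 and *Axin1* at 19.8. *Tcf7l1*, *Gsk3a*, *Gsk3b* and *Lef1* followed between 11.1 and 9.87, and the intervals of neighbors among these 4 overlapped. *Axin2* stood at 7.12, *Lrp6* at 1.61 and *Apc* at 0.353 CPM per kilobase. The place of *Gsk3b* depends on its long untranslated regions: per kilobase of coding sequence, an alternative chosen after the data were seen, it stood at 56.0 in wild type and 63.4 in *tuft*, at rank 3 and rank 2 of the 10.

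The annotated transcripts of *Apc*, *Lrp6* and *Gsk3b* are 12346, 9368 and 8303 bases long, and those of the other members at most 5172. Among genes at 10 CPM or more, the 447 with a transcript over 8000 bases had a median log2 fold change of -0.35, beside 0.00 for the 8312 shorter ones. *Gsk3b*, also over 8000 bases, had a fold change of 1.49. GC content of the member transcripts ranged from 44.1% in *Apc* to 59.8% in *Gsk3a*, both called lower. Among genes at 10 CPM or more, the median log2 fold change was 0.39 below 45% GC and 0.01 at 55% or more. The part of transcript length or GC content in the values of *Apc* and *Lrp6* was not tested.

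The other genes of the pathway came from 5 lists, written with earlier results of these data known. In all, 115 of the 121 genes on them were tested, of which 34 (29.6%) were called lower and 27 (23.5%) higher. These shares are near those of genes at 10 CPM or more (26.3% lower and 26.2% higher), and the share called lower is below the 42.9% of all tested genes. Their median log2 fold change was -0.31, beside -0.55 for all tested genes. Genes are named as the 3 lowest and 3 highest of each list among those whose counts in the libraries sum to 100 or more.

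Of 29 further genes of the destruction complex and of beta-catenin turnover, 5 (17.2%) were called lower, 6 (20.7%) higher and 18 were not called. Beside them stand 42.9% lower and 21.3% higher of all tested genes, and 26.3% and 26.2% of those at 10 CPM or more. The median log2 fold change was -0.02. *Tnks*, which encodes a tankyrase that marks AXIN for degradation, had 1023 counts in wild type and 1 in *tuft*, a fold change of 0.00285 (7.2e-05 to 0.0159) that rests on a single count. *Tnks2*, its paralog, is named beyond this rule, after its values were seen, with 3205 and 2487 counts and a fold change of 2.26. *Dact1*, a partner of Dishevelled, had 222 counts in wild type and none in *tuft*. With 3 counts set for the 0 it was 25.4-fold lower, and its interval reached up to a fold change of 0.0488. *Frat1*, a GSK3-binding protein gene, had 164 and none, 18.8-fold lower in the same way, with an interval up to 0.0662. The highest were *Skp1a*, a subunit of the ubiquitin ligase that receives phosphorylated beta-catenin, at 5.37-fold (5.15 to 5.59), *Amer2* at 3.78-fold and *Ppp2cb*, a catalytic subunit of PP2A, at 2.94-fold.

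Among the genes that act next to the co-receptors, 22 of 23 were tested, and 9 (40.9%) were called lower and 5 (22.7%) higher. These shares are close to the 42.9% and 21.3% of all tested genes. The share called lower is above the 26.3% of those at 10 CPM or more, of which 26.2% were called higher. The median log2 fold change was -0.63, or -0.59 with the 4 genes at 0 in *tuft* set to 3 counts. The lowest were *Znrf3*, a ubiquitin ligase that removes Frizzled and LRP6 from the cell surface, at 0.0293 (0.00795 to 0.0757), *Fermt2* at 0.148 (0.116 to 0.185) and *Caprin2* at 0.183 (0.0958 to 0.320). The value of *Znrf3* rests on 397 counts in wild type and 4 in *tuft*. *Dvl2*, which encodes one of the Dishevelled proteins, was 3.44-fold higher (3.20 to 3.70), *Lgr5*, a receptor for R-spondins, 2.73-fold (1.98 to 3.78) and *Gpc4*, a glypican, 2.69-fold (2.38 to 3.05). *Mesdc2*, the chaperone of LRP5 and LRP6, is named beyond the rule and had a fold change of 1.15 (1.07 to 1.24).

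Of 30 nuclear partners of beta-catenin, 9 (30%) were called lower, 4 (13.3%) higher and 17 were not called. Beside them stand 42.9% lower and 21.3% higher of all tested genes, and 26.3% and 26.2% of those at 10 CPM or more. The median log2 fold change was -0.28. *Leo1*, of the PAF1 complex, had 1089 counts in wild type and 2 in *tuft*, a fold change of 0.00535 (0.000647 to 0.0194). *Tbl1x* was at 0.125 (0.0995 to 0.156) and *Pygo1*, which ties beta-catenin to chromatin through BCL9, at 0.204 (0.0861 to 0.416). The highest were *Tle2*, a corepressor of the Groucho family, at 18.8-fold (12.7 to 28.8) from 29 and 187 counts, *Tcf7l2* at 4.25-fold (3.82 to 4.72) and *Ctbp2* at 2.29-fold (2.14 to 2.46).

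Target genes of the canonical pathway, apart from *Axin2* and *Lef1*, numbered 31, of which 27 were tested. Of these, 12 (44.4%) were called higher and 8 (29.6%) lower, beside 21.3% higher and 42.9% lower of all tested genes and 26.2% and 26.3% of those at 10 CPM or more. The median log2 fold change was 0.67, beside -0.55 and 0.02. *Sp5*, a transcription factor gene induced by WNT, had 123 counts in wild type and 356 in *tuft*, 8.43-fold higher (6.85 to 10.4). *Sox9* was 4.87-fold (4.37 to 5.42) higher. *Dkk1*, a secreted ligand of LRP5 and LRP6 that blocks them, had 192 counts in wild type and 264 in *tuft* and was also called higher (3.31 to 4.85). Among the lowest were *Nkd2* at 0.0247 (0.00297 to 0.0901), from 236 counts in wild type and 2 in *tuft*, and *Znrf3* at 0.0293, from 397 and 4.

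At the cell junctions, where beta-catenin binds cadherins, 11 of 12 genes were tested, and 5 (45.5%) were called lower and 1 (9.09%) higher. The share called lower is close to the 42.9% of all tested genes and above the 26.3% of those at 10 CPM or more. For higher calls these shares were 21.3% and 26.2%. The median log2 fold change was -0.93, beside -0.55 for all tested genes and 0.02 for those at 10 CPM or more. *Cdh11* had 1381 counts in wild type and 7 in *tuft*, a fold change of 0.0148 (0.00592 to 0.0305). *Ctnnal1* was at 0.206 (0.152 to 0.275) and *Cdh1*, the epithelial cadherin, at 0.229 (0.194 to 0.269). *Ctnnd2* was 3.30-fold (2.83 to 3.85), *Ctnnd1* 1.87-fold and *Vcl* 1.36-fold higher, the last 2 without a call.

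**Figure D5:**
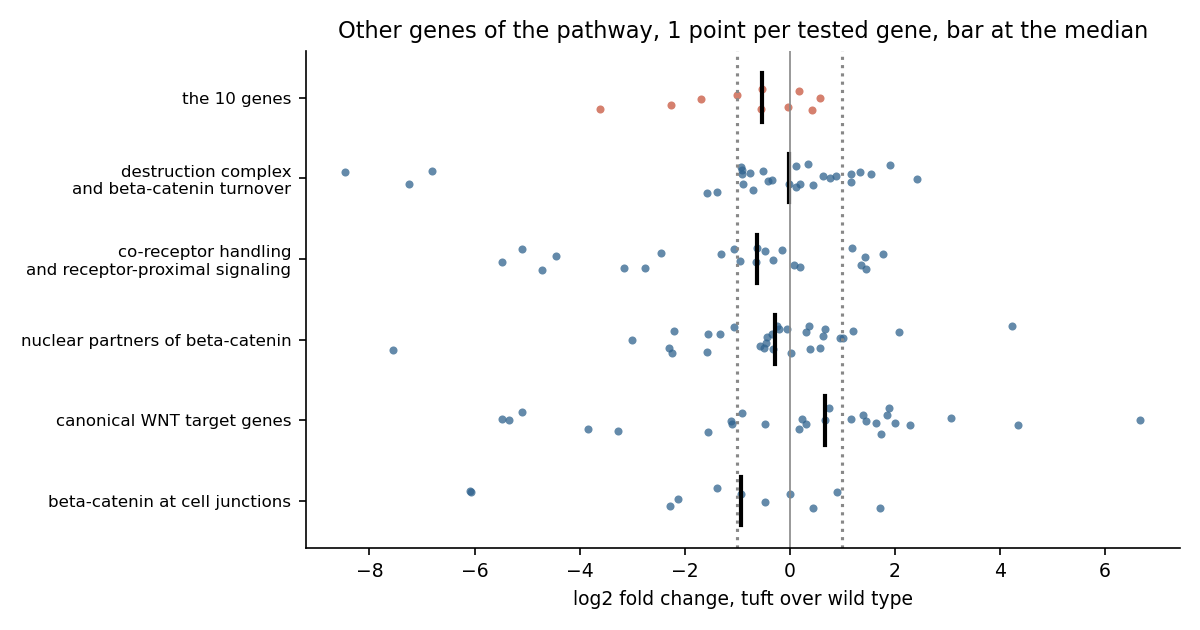
Log2 fold change, *tuft* over wild type, of the 10 genes (red) and of the tested genes of 5 further lists of the pathway (blue), 1 point per gene and a bar at each median; dotted lines mark 2-fold. The medians are -0.53 for the 10 genes, -0.02, -0.63, -0.28 and -0.93 for turnover, co-receptor, nuclear and junction genes, and 0.67 for the target genes.

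Cell type markers differed between the libraries. Their summed levels are CPM on library totals, without the TMM factor of 0.761, whereas the calls rest on TMM fold changes. The 5 neuroectoderm markers (*Sox2*, *Pax6*, *Nes*, *Cdh2* and *Sox1*) were counted in both, with summed levels of 684 CPM in wild type and 672 in *tuft*, and 1 of the 5 was called higher. Markers of head mesenchyme and neural crest summed to 210 and 463 CPM (2 called higher, 1 lower) and those of surface ectoderm to 592 and 768 (1 higher, 1 lower). Endothelial markers summed to 256 and 85.7 CPM, with 4 of 5 called lower, 1 higher and *Pecam1* at 0 in *tuft*. Yolk sac markers went from 1429 to 179 CPM, with 4 of 5 called lower and *Apoa4* at 0 in *tuft*. Primitive blood markers went from 3192 to 35525 CPM, with 3 of 5 called higher and 1 lower, led by the embryonic globin genes *Hbb-y* and *Hba-x*. Heart markers were low in both, at 3.65 and 0.311 CPM, with 4 of 5 at 0 in *tuft* and 2 called lower. In pooled tissue, fewer cells of a type and less RNA per cell cannot be told apart. The part of these differences in the values of the 10 genes was not tested.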

How the data were processed

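RNA-Seq counts of 1 *tuft* and 1 wild-type library were analyzed, and each column was assigned to its genotype by name. Poly-A RNA was read from one end on an Ion Proton by the authors, who trimmed with PRINSEQ, aligned to mm10 with TopHat 2.0.14 on Bowtie2 2.2.5, and deposited raw counts from htseq-count. The HTSeq version, the overlap mode, the strand setting and the gene models are not given in the sources used here. The 5 summary lines of each column were left out. They held 62.7% of entries in wild type and 72.6% in *tuft*, mostly alignments that were not unique.

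TMM factors came from edgeR 4.0.16 (R 4.3.3), which trims 30% of log ratios and 5% of levels at each end. Intervals and calls were computed in Python 3.11.15 with scipy 1.17.1 and tested on simulated data. The simulated data held counting noise only and far fewer changed genes than these libraries. The test therefore checks the computation and not how the calls behave in libraries such as these. For log2 fold changes a count of 0 was set to 0.5. A count of 0 allows for up to 3 counts, which is 0.210 CPM in wild type and 0.466 in *tuft*. With 1 library per genotype edgeR's tests leave no residual degrees of freedom. NOISeq-sim, used in the study, draws its noise from simulated libraries and was not run here. Members and lists were chosen with earlier results of these data known. Named genes are the 10 members, *Tet1*, and the 3 lowest and 3 highest of each list, of which 1 gene is not reported here. Alternatives were 4 other scalings, other filters, fold thresholds and values for 0, and, chosen after seeing the data, TMM without *Rn45s* and the globin genes and coding length in place of transcript length.

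Positions and promoters came from RefSeq (GRCm38.p6), and transcript lengths and GC content from GENCODE M1 on NCBIM37, which covered 92.7% of the genes at 10 CPM or more. Protein sequences were not used here.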

Additional observations from a re-analysis of the deposited data

How the results depend on the processing

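The call of *Apc*, *Lrp6* and *Gsk3a* as lower held under each of the 6 scalings, both other filters, a threshold of 1.5 and the whole counting interval past 2-fold; at 4-fold, *Gsk3a* was no longer called. *Axin2* was called as well at 1.5-fold and under 3 scalings (upper quartile and both kinds of library totals), which gave 4 members called lower. No member was called higher under any alternative run. Library totals alone, and totals without the 10 top genes, moved 9 of the 10 fold changes beyond their counting interval and took *Lef1* below 1, and the median of ratios took *Ctnnb1* above 1. At 4-fold, 22 genes of the 5 further lists were called lower and 8 higher, beside 34 and 27 at 2-fold, and 9.20% of tested genes were called higher. The count of members called did not move by more than 1.5 times.

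No paired analysis was possible because each genotype has 1 column of counts. For the same reason no library could be left out. Depth limits *Apc* most, with 28 counts in *tuft*.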
